A study of Mus musculus with 9 samples.

Results

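The KRAB-type zinc finger genes described here are 126 genes of the deposited mouse table, selected on their symbol, which starts with Zfp, on the pathway ko05168 in the table's annotation column, the KEGG pathway of herpes simplex virus infection under which genes of this family are listed, and on a mean of at least 2 FPKM over the 9 libraries. FPKM is the number of reads on a gene per kilobase of its exons and per unit of sequencing depth of the library, and it allows levels to be compared between genes. The table holds 56691 genes, of which 427 have a symbol starting with Zfp and 285 of these also carry the pathway. The other 159 genes of those 285 lay under the floor of 2 FPKM. Since the mean over all libraries chose the members, their overall level is given as a description and is not tested.

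KRAB zinc finger proteins bind DNA through arrays of C2H2 zinc fingers, each of which contacts a few bases, and carry near their start a KRAB box that recruits the corepressor KAP1, the product of Trim28. KAP1 brings the histone methyltransferase SETDB1, HP1 proteins and histone deacetylases to the bound site, where H3K9 trimethylation silences endogenous retroviruses, other transposons and some imprinted or developmental genes. The family is one of the largest groups of transcription factors in mammals, its genes lie in clusters that arose by tandem duplication, and many differ between mouse strains.

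RNA was measured in RAW264.7 cells, a mouse macrophage-like line derived from a tumor induced by Abelson murine leukemia virus that forms osteoclast-like cells when given RANKL, the cytokine that drives osteoclast differentiation. The 3 groups of 3 libraries were control cells, cells given RANKL, and cells given RANKL together with the nucleoside uridine (RANKL + UD), and cells were harvested after 3 days. A single cell line was used, so the libraries do not stand for separate animals. The comparisons ask which members moved during RANKL-induced differentiation and which differed when uridine was present.

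Total counts per library ranged from 15951800 to 19746862, and the counts of one member in one library ranged from 63 to 5813 with a median of 342. All 126 members were among the 11995 genes tested. The labels were checked against marker genes: 8 of 9 listed osteoclast markers were tested and all 8 were higher with RANKL, with Acp5 at 0.910 ± 0.128 FPKM (SD, n = 3) in control and 411 ± 27.9 FPKM with RANKL. Of 7 macrophage markers, 6 were lower with RANKL and Cd68 was higher. The summed level of 10 markers of fibroblasts, osteoblasts, lymphocytes and epithelial cells was 0.19 to 0.85 FPKM over the 9 libraries, and none of them passed the filter on low values. In bulk RNA, fewer expressing cells and less RNA per cell cannot be told apart. RANKL replicate 3 had the lowest summed level of the members of all libraries.

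The members were expressed at low to moderate levels. Their median mean level was 4.09 FPKM, against 7.03 FPKM over all genes tested, and 10 of 126 exceeded 10 FPKM. Zfp871, Zfp809, Zfp146, Zfp62 and Zfp52 had the highest mean levels, from 21.5 FPKM for Zfp871 to 13.4 FPKM for Zfp52. Just inside the floor were Zfp653, Zfp113 and Zfp239 with mean levels of 2.00, 2.01 and 2.06 FPKM, and just outside it were Zfp40, Zfp873 and Zfp69, each with a mean level of 1.99 FPKM. In 12 members at least 1 group mean was under 2 FPKM, and in the other 114 every group mean reached 2 FPKM.

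The summed level of the members was lowest in the RANKL libraries. It was 715.8, 707.2 and 715.1 FPKM in control, 596.2, 584.9 and 548.7 FPKM with RANKL, and 675.2, 689.1 and 675.8 FPKM with RANKL + UD. The 3 groups did not overlap, with the RANKL libraries lowest and the RANKL + UD libraries between them and control. Members took 0.350 to 0.360% of all counts in control, 0.269 to 0.296% with RANKL alone and 0.338 to 0.347% with RANKL + UD. The median level of a member was 4.01 to 4.27 FPKM in control, 3.45 to 3.73 FPKM with RANKL alone and 4.15 to 4.42 FPKM with RANKL + UD, so the median did not separate control from RANKL + UD. These levels and shares rest on total counts alone. On that scale the median log2 fold change of all genes tested was -0.116 with RANKL and 0.091 with RANKL + UD against RANKL.

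**Figure D1:**
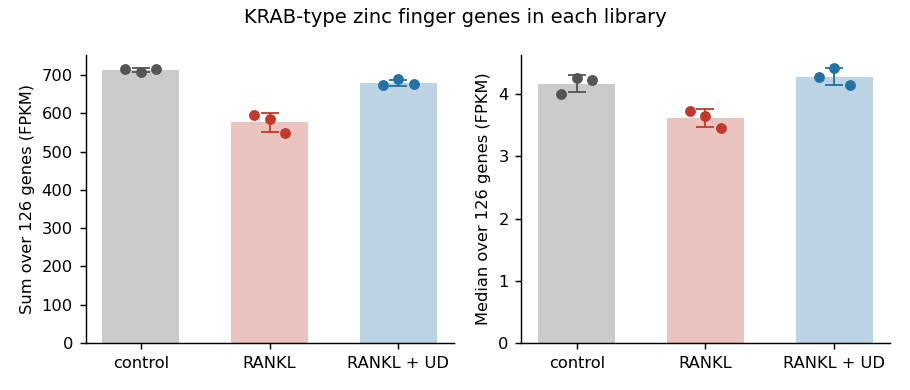
Summed (left) and median (right) level of the 126 members in FPKM in each library, with points for libraries, bars for group means and error bars for the SD over 3 libraries. The RANKL sums, 548.7 to 596.2 FPKM, lie under every control and RANKL + UD sum.

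In RANKL against control, members were lower far more often than higher. Of the 126 members, 55 (43.7%) were lower and 8 (6.35%) were higher at an adjusted p under 0.05 in edgeR's quasi-likelihood test, and 63 did not pass. Among all genes tested, 30.2% were lower and 27.3% were higher. The median log2 fold change was -0.17 over the members and -0.03 over all genes tested, and 15 of the lower members fell by more than 1.5-fold, whereas none of the higher members rose by that much. Without TMM scaling, that is with total counts alone, 67 members were lower and 4 were higher, while the median of all genes moved to -0.12. The number of higher members was 5 without control replicate 2 and 5 without RANKL replicate 2. Of the 12 members with a group mean under 2 FPKM, 10 were among the lower members, and without those 12 genes 45 members were lower and 8 were higher.

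The largest falls were those of Zfp239, Zfp715 and Zfp658. Zfp239 (chromosome 6, 117839061 to 117850252), which encodes the DNA- and RNA-binding protein MOK2, measured 3.03, 3.40 and 3.92 FPKM in the control libraries, 1.03, 1.17 and 1.12 with RANKL and 1.53, 1.62 and 1.76 with RANKL + UD. Its log2 fold change with RANKL was -1.55 ± 0.15 (SE, adjusted p = 8.44e-10), the control and RANKL libraries did not overlap, and its group means with RANKL and with RANKL + UD were under 2 FPKM. Zfp715 (chromosome 7, 42945621 to 42962718) measured 13.1, 12.6 and 13.6 FPKM in the control libraries, 4.91, 5.06 and 4.39 with RANKL and 8.15, 6.97 and 7.29 with RANKL + UD. It fell by 1.36 on the log2 scale (SE 0.08, adjusted p = 4.82e-14), and every RANKL library was under every other library. Zfp658, a neighbor of Zfp715 with 21 zinc fingers in its longest predicted protein, measured 3.48, 3.48 and 4.95 FPKM in the control libraries, 2.27, 1.20 and 1.25 with RANKL and 1.83, 2.00 and 1.44 with RANKL + UD. Its control libraries all lay above the other 6, and its log2 fold change was -1.24 ± 0.22 (adjusted p = 8.90e-05), with RANKL replicate 1 above the other RANKL libraries. As with Zfp239, only the control mean of Zfp658 was over 2 FPKM, so the floor favored members that are high in control.

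Zfp970, Zfp607a, Zfp382, Zfp958 and Zfp953 completed the 8 largest falls. Zfp958, the most abundant of them, measured 17.4, 15.5 and 18.4 FPKM in the control libraries, 8.61, 9.17 and 8.75 with RANKL and 12.9, 14.3 and 13.5 with RANKL + UD, a log2 fold change of -0.86 ± 0.09 with RANKL (adjusted p = 2.93e-09). Its 3 groups did not overlap and the RANKL + UD libraries lay between the others. Zfp970 fell by 0.94, Zfp607a by 0.91, Zfp382 by 0.89 and Zfp953 by 0.74 on the log2 scale, with adjusted p-values of 3.26e-06, 2.19e-06, 1.86e-05 and 1.88e-05.

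Among the most abundant members, Zfp871, Zfp809 and Zfp146 fell. Zfp871 (chromosome 17, 32984470 to 33007261) measured 24.9, 24.6 and 20.2 FPKM in the control libraries, 16.9, 17.1 and 13.7 with RANKL and 26.6, 25.6 and 23.9 with RANKL + UD, with all RANKL libraries lowest. Its log2 fold change with RANKL was -0.46 ± 0.10 (adjusted p = 0.00347). Zfp809, which binds the primer binding site of murine leukemia virus proviruses and recruits KAP1 to them, measured 23.2, 23.1 and 22.9 FPKM in the control libraries, 18.3, 15.7 and 14.8 with RANKL and 25.3, 23.1 and 23.8 with RANKL + UD. Control libraries were close to each other and all RANKL libraries were below them, with a log2 fold change of -0.41 ± 0.07 (adjusted p = 1.94e-05). Zfp146, which encodes OZF, a protein made of zinc fingers alone, fell by 0.42 on the log2 scale (SE 0.07, adjusted p = 2.66e-05). Zfp62 and Zfp52 had log2 fold changes of -0.04 ± 0.06 and 0.10 ± 0.07 (adjusted p = 0.617 and 0.214), neither of which passed.

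Rises with RANKL were smaller. Zfp51 (chromosome 17, 21670636 to 21685849) measured 5.97, 6.26 and 7.06 FPKM in the control libraries, 8.93, 8.54 and 8.49 with RANKL and 7.87, 8.03 and 9.69 with RANKL + UD, a log2 fold change of 0.52 ± 0.10 (adjusted p = 1.31e-04), and its control libraries lay under the other 6. The log2 fold changes of the other members that rose without overlap of the libraries were 0.45 for Zfp623, 0.44 for Zfp984, 0.40 for Zfp867, 0.37 for Zfp959 and 0.34 for Zfp560. The calls of Zfp867 and Zfp560 were each lost under 5 of 18 alternative analyses. Of the windows of 100 bases in the transcripts of Zfp984, 30.9% also occurred in another gene, so its counts depend on how shared reads were assigned, which is not given in the sources used here.

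**Figure D2:**
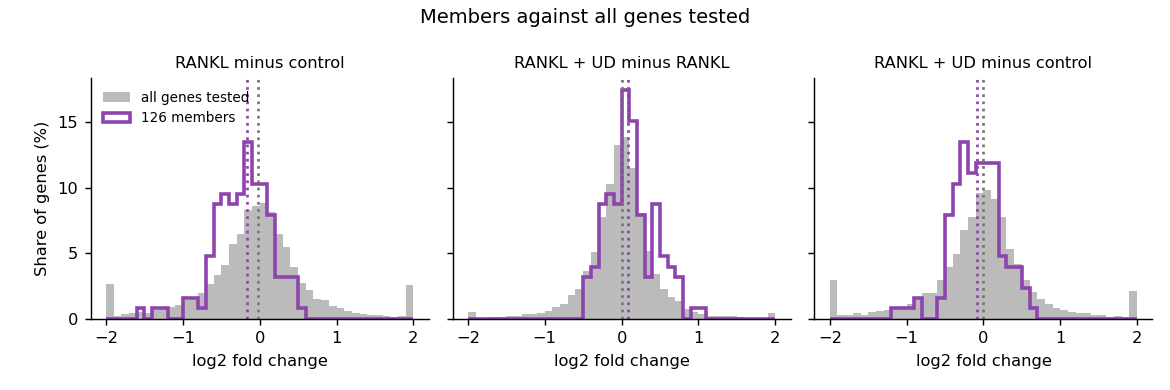
Share of genes (%) by log2 fold change in bins of 0.1 for the 126 members (purple outline) and all 11995 genes tested (gray), with dotted lines at the medians and values beyond 2 drawn in the end bins. The members' median lies at -0.17 in RANKL minus control, 0.09 in RANKL + UD minus RANKL and -0.08 in RANKL + UD minus control.

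In RANKL + UD against RANKL, which shares the RANKL libraries with the comparison above, the members were more often higher. Of the 126 members, 39 (31.0%) were higher and 11 (8.73%) were lower, and 76 did not pass the test. Over all genes tested the shares were 18.7% higher and 20.2% lower. The median log2 fold change was 0.09 over the members against 0.01 over all genes, and 13 of the higher members rose by more than 1.5-fold, whereas no member fell by that much. Of the 12 members with a group mean under 2 FPKM, 7 were among the higher members and 2 among the lower. Without those 12 genes, 32 members were higher and 9 were lower. With total counts alone, 47 members were higher and 4 were lower, so the share of called members that were higher was 92.2% in place of 78.0%. Over all genes tested that share moved in the same direction, from 48.1% to 66.3%. The count of lower members was not stable: it was 4 without RANKL replicate 1, 4 without RANKL replicate 2, 3 without RANKL + UD replicate 1, 7 without RANKL + UD replicate 2, and 7 without RANKL + UD replicate 3.

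Zfp329 (chromosome 7, 12538904 to 12552785) showed the largest rise. It measured 5.77, 5.56 and 4.33 FPKM in the control libraries, 3.61, 3.16 and 2.69 with RANKL and 7.17, 7.14 and 6.24 with RANKL + UD, so that its RANKL + UD libraries lay above all other libraries and its RANKL libraries below them. Its log2 fold change was 1.03 ± 0.11 against RANKL (adjusted p = 2.54e-07) and 0.39 ± 0.11 against control (adjusted p = 0.00428). Zfp970 measured 7.41, 6.64 and 6.75 FPKM in the control libraries, 3.76, 3.74 and 2.71 with RANKL and 5.88, 8.02 and 7.52 with RANKL + UD, a log2 fold change of 0.98 ± 0.14 against RANKL (adjusted p = 4.62e-06). The RANKL + UD and control libraries of Zfp970 overlapped, and their log2 difference was 0.04 ± 0.14 (adjusted p = 0.834).

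Zfp607a, Zfp971, Zfp398, Zfp950, Zfp850 and Zfp597 made up the other 6 of the 8 largest rises, with log2 fold changes of 0.79, 0.73, 0.72, 0.71, 0.68 and 0.65 against RANKL and adjusted p-values from 1.16e-06 to 9.04e-04. The RANKL means of Zfp607a, Zfp398 and Zfp950 were 1.47, 1.74 and 1.56 FPKM, under the floor. These members met it through the groups where they are high. Zfp398 measured 3.08, 3.16 and 2.54 FPKM in the control libraries, 1.87, 1.82 and 1.54 with RANKL and 3.11, 3.13 and 2.91 with RANKL + UD, with the RANKL libraries below all others. Zfp597 differed from these in that it did not pass the test in RANKL against control (log2 fold change -0.17 ± 0.10, adjusted p = 0.156), and its RANKL + UD libraries, at 5.11, 6.17 and 4.96 FPKM, were above all 6 others. Zfp950 and Zfp597 overlap the genes Grk5 and Naa60 on the opposite strand. Although the labels describe strand-specific libraries, the strand setting of the counting is not given in the sources used here.

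Of the most abundant members, Zfp871 rose by 0.59 ± 0.10 on the log2 scale (adjusted p = 0.00136), Zfp809 by 0.48 ± 0.07 (adjusted p = 6.10e-06) and Zfp146 by 0.26 ± 0.07 (adjusted p = 0.00737). Zfp62 and Zfp52 did not pass, with 0.10 ± 0.06 and 0.03 ± 0.07.

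Falls with uridine were small and few. Zfp983 (chromosome 17, 21869545 to 21883882) measured 3.57, 3.33 and 4.06 FPKM in the control libraries, 2.33, 2.36 and 2.20 with RANKL and 1.71, 1.93 and 1.85 with RANKL + UD. Its 3 groups did not overlap, and its log2 fold change was -0.58 ± 0.12 in RANKL against control (adjusted p = 2.76e-04) and -0.42 ± 0.13 in RANKL + UD against RANKL (adjusted p = 0.0130). Zfp317 likewise stepped down, measuring 12.4, 12.3 and 11.3 FPKM in the control libraries, 10.7, 8.84 and 8.87 with RANKL and 7.78, 8.60 and 8.70 with RANKL + UD, with log2 fold changes of -0.26 ± 0.08 and -0.27 ± 0.08 (adjusted p = 0.00631 and 0.00947), the latter lost under 5 of 18 alternatives. Zfp212 and Zfp869 fell by 0.43 and 0.31 against RANKL on the log2 scale. Zfp97, Zfp653 and Zfp810 fell by 0.49, 0.36 and 0.26, calls that were lost under 7, 11 and 11 of 18 alternatives, and 67.3% of the windows of 100 bases of Zfp97 also occurred in another gene. Only the RANKL mean of Zfp653, 2.24 FPKM, was over the floor, so it met the floor through the group where it is high. The RANKL + UD mean of Zfp983, 1.83 FPKM, was under the floor, which Zfp983 met through the other groups.

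**Figure D3:**
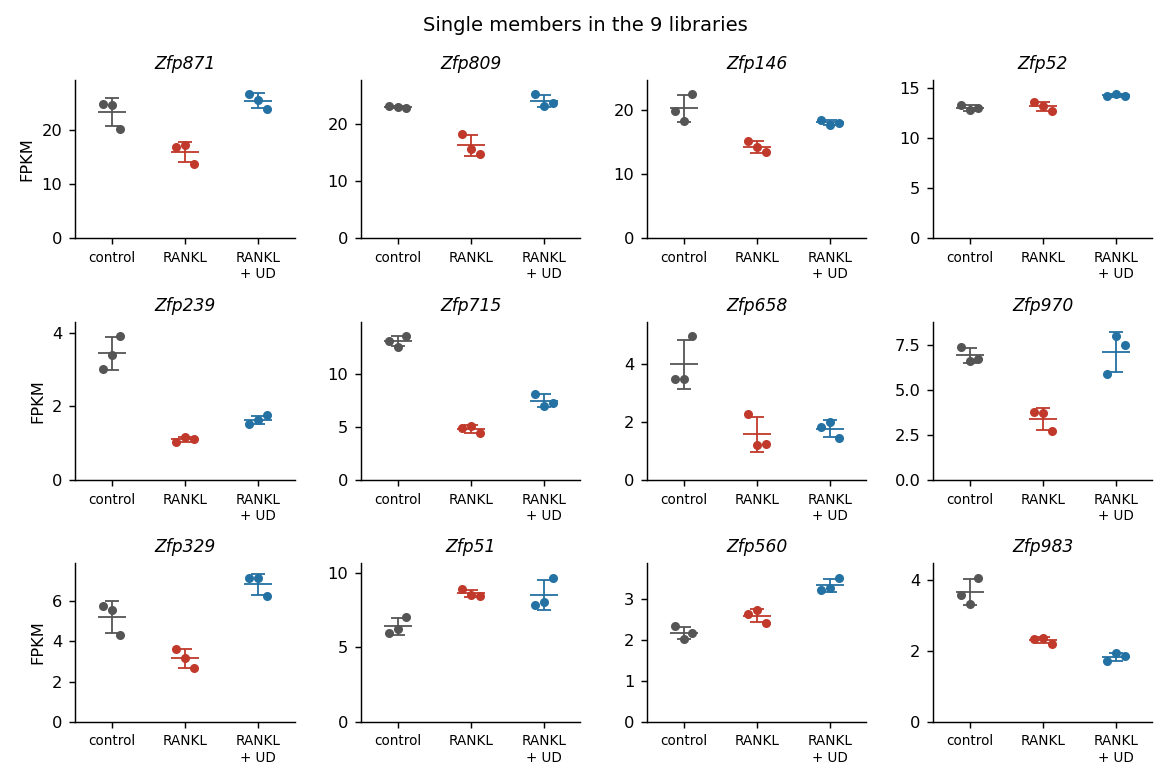
Level in FPKM of 12 members in the 9 libraries, with points for libraries, a horizontal bar for the group mean and error bars for the SD over 3 libraries. Zfp970 and Zfp809 are lowest with RANKL and overlap between control and RANKL + UD, Zfp658 stays low with RANKL + UD, and Zfp983 steps down from control to RANKL to RANKL + UD.

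RANKL + UD against control, which shares libraries with both other comparisons, gave 34 lower members (27.0%) and 17 higher members (13.5%), where 27.4% of all genes were lower and 26.5% were higher. The share of lower members was near that of all genes. Without the 12 members with a group mean under 2 FPKM, 16 members were higher and 29 were lower. The median log2 fold change was -0.08 over the members and -0.002 over all genes. Zfp658 with -1.17 ± 0.22, Zfp239 with -1.08 ± 0.14, Zfp983 with -0.997 ± 0.13 and Zfp715 with -0.81 ± 0.08 were below control (adjusted p = 1.79e-04, 3.45e-07, 2.37e-07 and 1.36e-09). Zfp560 and Zfp867 were above control by 0.62 ± 0.12 and 0.58 ± 0.14 (adjusted p = 5.11e-05 and 0.00135). Zfp809 was at 23.0 ± 0.141 FPKM (SD, n = 3) in control and 24.1 ± 1.11 FPKM with RANKL + UD, a log2 difference of 0.07 ± 0.07 (adjusted p = 0.460).

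The members were next divided by the protein that their transcripts encode. A KRAB box was found by a sequence profile in the translated transcripts of 102 members and was not found in 24, among them Zfp146, Zfp62, Zfp239 and Zfp329, and the number of C2H2 fingers in a member ranged from 2 to 30 with a median of 11. In RANKL against control, 50 of the 102 members with a KRAB box were lower (49.0%) and 6 were higher (5.88%), with a median log2 fold change of -0.25. Of the 24 in which none was found, 5 were lower (20.8%) and 2 were higher (8.33%), with a median of -0.05. A box that the profile missed counts as not found. The shares over all genes tested were 30.2% lower and 27.3% higher. In RANKL + UD against RANKL, 18.7% of all genes tested were higher and 20.2% were lower. With a box, 32 of 102 members were higher (31.4%) and 9 were lower (8.82%), with a median of 0.10. Where no box was found, 7 of 24 were higher (29.2%) and 2 were lower (8.33%), with a median of 0.07. The difference between these subgroups was not tested. The 30 members that shared over 5% of their windows of 100 bases with another gene or overlapped an expressed gene on the opposite strand were then left out. Of the other 96, 46 were lower (47.9%) and 6 were higher (6.25%) with RANKL. With RANKL + UD against RANKL, 30 were higher (31.25%) and 8 were lower (8.33%).

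Zinc finger genes outside the selection were set beside the members. The 34 tested genes that encode a KRAB box and zinc fingers under a symbol that does not start with Zfp, of 80 such genes in the table, included 20 that were lower and 1 that was higher with RANKL (median log2 fold change -0.37), and 11 that were higher and 2 that were lower with RANKL + UD against RANKL (median 0.34). Of the 159 genes under the floor, 49 were tested, and 27 were lower and 3 were higher with RANKL (median -0.42), and 5 were higher and 4 were lower with RANKL + UD against RANKL (median 0.06). The 72 other Zfp genes over the floor that carry no such pathway had 23 lower and 15 higher with RANKL (median -0.09), and 13 higher and 11 lower with uridine (median -0.01). A gene near the filter, at least 1 FPKM in at least 3 libraries, can enter through the group where it is high, so the counts of the 49 genes under the floor and of the 34 genes with other symbols describe the genes that entered and lend no support to the members. Beside these counts, 30.2% of all genes tested were lower and 27.3% higher with RANKL. With RANKL + UD against RANKL, 18.7% were higher and 20.2% lower. No test of the difference between sets was made.

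Members lay in chromosomal clusters. With neighbors within 1 Mb joined, 87 of the 126 members fell into 15 clusters that hold at least 3 members each, and 39 lay outside them. Chromosomes 7 and 17 carried 31 and 27 members. Within the 15 clusters 39 of 87 members were lower and 4 were higher with RANKL, and outside them 16 of 39 were lower and 4 were higher. Positions are those of the deposited table.

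The clusters are described singly. Each holds few members, and differences between clusters were not tested. The counts of each cluster stand beside the shares over all genes tested that are given above. In the cluster on chromosome 2 (175214229 to 177720269, 11 genes), the 3 members Zfp970, Zfp971 and Zfp931 all fell with RANKL, by 0.94, 0.56 and 0.36 on the log2 scale, and all rose with RANKL + UD against RANKL, by 0.98, 0.73 and 0.41. Their summed level was 24.8, 24.0 and 23.9 FPKM in control, 17.4, 16.3 and 11.0 with RANKL alone and 24.9, 26.6 and 26.6 with RANKL + UD, and RANKL replicate 3 was the lowest library. These 3 genes shared 17.4%, 22.1% and 6.91% of their windows of 100 bases with other genes.

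The 3 promoters of this cluster are shown because the genes moved together and their upstream sequences are near copies. Each window runs from 250 bases before to 50 bases after the start of the RefSeq gene in GRCm38.p6, whose coordinates differ from those of the deposited table, at chr2:177464492-177464791 (plus strand), chr2:178023034-178023333 (plus strand) and chr2:178078376-178078675 (minus strand), and capitals mark the CCAAT box read on either strand.
Zfp970: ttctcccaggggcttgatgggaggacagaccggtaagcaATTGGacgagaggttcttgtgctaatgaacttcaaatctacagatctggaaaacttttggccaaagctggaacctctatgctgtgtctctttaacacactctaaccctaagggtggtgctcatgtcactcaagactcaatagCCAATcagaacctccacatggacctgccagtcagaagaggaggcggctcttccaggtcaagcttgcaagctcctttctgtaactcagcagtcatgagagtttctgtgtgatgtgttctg
Zfp971: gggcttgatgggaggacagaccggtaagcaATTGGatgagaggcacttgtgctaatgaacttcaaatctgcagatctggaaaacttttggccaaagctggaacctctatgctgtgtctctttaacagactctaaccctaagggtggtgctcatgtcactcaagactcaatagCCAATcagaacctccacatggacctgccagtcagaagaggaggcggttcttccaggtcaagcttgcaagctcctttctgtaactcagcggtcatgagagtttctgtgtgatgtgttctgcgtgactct
Zfp931: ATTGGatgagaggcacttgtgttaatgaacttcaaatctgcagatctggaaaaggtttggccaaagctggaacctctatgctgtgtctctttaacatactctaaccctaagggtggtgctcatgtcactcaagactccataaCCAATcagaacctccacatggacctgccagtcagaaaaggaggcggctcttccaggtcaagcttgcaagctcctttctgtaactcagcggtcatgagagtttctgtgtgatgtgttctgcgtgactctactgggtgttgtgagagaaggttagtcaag
Over the best local alignments, Zfp970 and Zfp971 were identical at 284 of 291 positions (97.6%), Zfp970 and Zfp931 at 249 of 261 (95.4%), and Zfp971 and Zfp931 at 262 of 270 (97.0%). Each window held 2 CCAAT boxes.

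Over the 115 members with a RefSeq promoter window, 57.4% held CCAAT on either strand, against 41.1% of all 27025 genes with such a window. CCGGAAGT, the core of ETS sites, was found in 10.4% of members and 4.31% of all genes, AAGATGGC, the core of YY1 sites, in 6.09% and 3.19%, and GGGCGG, an Sp1 site, in 42.6% and 38.2%. TATAAA was found in 8.70% and 15.7%, TGACTCA, an AP-1 site, in 5.22% and 5.95%, and CACGTG, an E-box that reads the same on both strands, in 7.83% and 8.09%. A match is a description of the letters and not of binding. The members were selected on expression, whereas the 27025 genes were not, and the shares over the genes tested were not computed. These differences are therefore not shown to be particular to the members. Windows of neighboring members can be near copies, so the members are not independent of each other. Members with and without CCAAT had medians of -0.17 and -0.24 with RANKL, and of 0.11 and 0.09 with RANKL + UD against RANKL.

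In the chromosome 7 cluster of Zfp60, Zfp626, Zfp59, Zfp607a and Zfp850 (27388765 to 27713540), 4 of 5 members fell with RANKL and 3 rose with RANKL + UD against RANKL, with medians of -0.56 and 0.61. Its summed level was 18.4, 17.8 and 16.2 FPKM in control, 12.8, 11.7 and 11.8 with RANKL alone and 18.0, 17.4 and 16.8 with RANKL + UD. Zfp60 did not pass with RANKL + UD against RANKL (0.12 ± 0.11, adjusted p = 0.415), and Zfp59 passed in neither comparison, with -0.03 ± 0.12 and 0.05 ± 0.12, and 28.5% of its windows of 100 bases occurred in another gene. In the chromosome 17 cluster from Zfp871 to Zfp101 (32984470 to 33613615), 6 of 8 members fell with RANKL and none rose, and 3 rose with RANKL + UD against RANKL, namely Zfp871, Zfp101 and Zfp81.

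The chromosome 7 cluster from Zfp788 to Zfp719 (41282627 to 43267709) held the falls of Zfp715 and Zfp658. Of its 5 members, 3 were lower in RANKL against control, and 4 were lower in RANKL + UD against control, Zfp788 being called in the latter alone. Its summed level was 30.6, 28.8 and 33.0 FPKM in control, 19.3, 17.7 and 16.0 with RANKL alone and 21.6, 20.7 and 20.4 with RANKL + UD, so that RANKL + UD lay nearer to RANKL than to control. In the largest described cluster, on chromosome 17 from Zfp160 to Zfp946, 8 of 15 members fell and Zfp51 rose with RANKL. The chromosome 13 cluster from Zfp759 to Zfp85 had 10 members of 26 genes, of which 4 fell with RANKL and 3 rose with RANKL + UD against RANKL.

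In the chromosome 9 cluster from Zfp317 to Zfp266, 3 of 5 members fell and Zfp560 rose with RANKL, and in the chromosome 7 cluster from Zfp84 to Zfp146, 4 of 10 fell. Some other clusters held no member or 1 member that fell. In the chromosome 7 cluster of Zfp771, Zfp768, Zfp764, Zfp629 and Zfp646 no member passed with RANKL, and Zfp629 was higher with RANKL + UD against RANKL. In the chromosome 8 cluster no member passed with RANKL, while with RANKL + UD against RANKL Zfp930 and Zfp866 rose and Zfp868 and Zfp869 fell. In the chromosome 6 cluster, Zfp398 fell with RANKL and rose with RANKL + UD against RANKL, whereas its neighbors Zfp282 and Zfp212 fell with RANKL + UD against RANKL and Zfp777 did not pass in either. Zfp746 of the same cluster, whose product PARIS represses the gene for PGC-1α, had log2 fold changes of 0.10 ± 0.10 and -0.24 ± 0.10, neither of which passed. In the small chromosome 17 cluster, Zfp959 rose with RANKL and Zfp119a rose with RANKL + UD against RANKL. Of Zfp180, Zfp111 and Zfp61 on chromosome 7, only Zfp111 passed, falling with RANKL and rising with RANKL + UD against RANKL. Of Zfp653, Zfp809 and Zfp810 on chromosome 9, only Zfp809 passed with RANKL, and it fell. With RANKL + UD against RANKL Zfp809 rose, whereas Zfp653 and Zfp810 fell. Of Zfp623, Zfp251 and Zfp7 on chromosome 15, Zfp7 fell and Zfp623 rose with RANKL. None of them passed with RANKL + UD against RANKL.

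**Figure D4:**
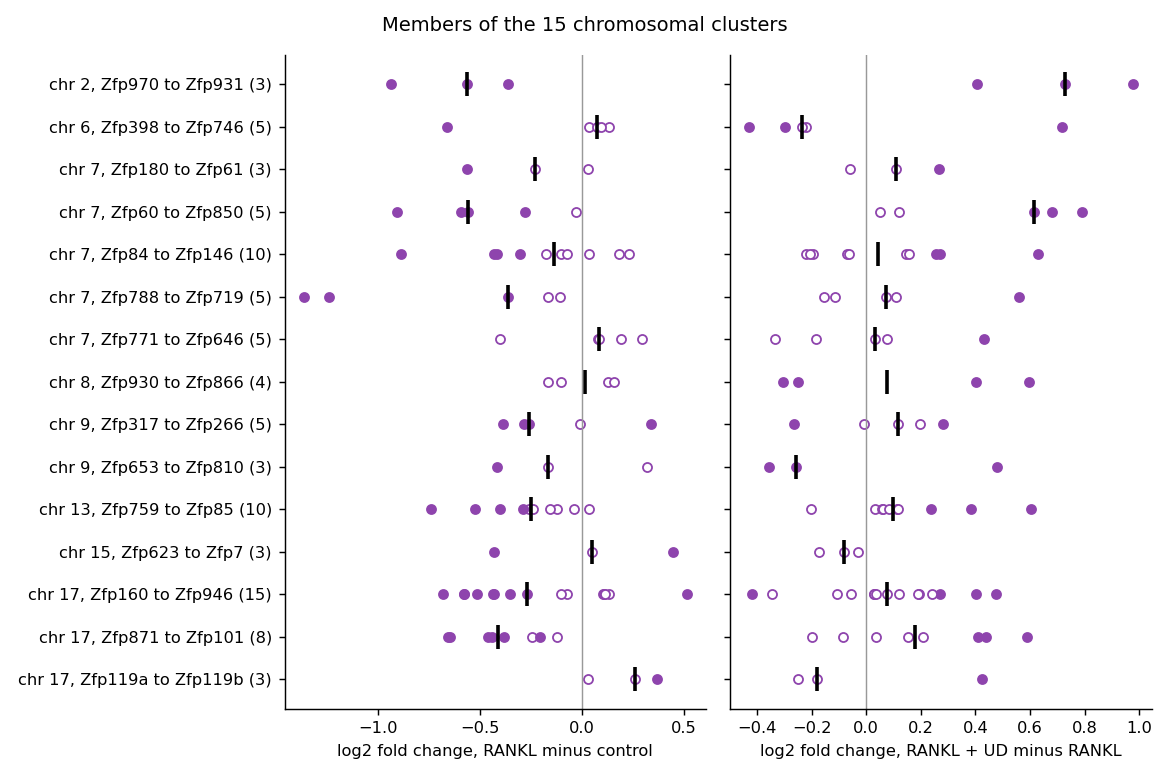
Log2 fold change of each member of the 15 clusters (rows, with chromosome, first and last member and number of members) in RANKL minus control (left) and RANKL + UD minus RANKL (right), with filled points at an adjusted p under 0.05 and a black tick at the cluster median. The chromosome 2 cluster and the chromosome 7 cluster from Zfp60 to Zfp850 have medians of -0.56 in the left panel and of 0.73 and 0.61 in the right panel.

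Of 18 listed KRAB zinc finger genes with a described function, 5 were members. Zfp809 is given above. Zfp932, which represses endogenous retroviruses, measured 6.48, 6.64 and 7.43 FPKM in the control libraries, 4.92, 5.28 and 4.83 with RANKL and 6.97, 6.01 and 7.02 with RANKL + UD, and it fell by 0.36 with RANKL (SE 0.10, adjusted p = 0.00343) and rose by 0.33 ± 0.10 with RANKL + UD against RANKL (adjusted p = 0.0116). Its RANKL libraries lay below all others, and 18.5% of its windows of 100 bases occurred in another gene. Zfp568, which silences a placental transcript of Igf2, measured 2.75, 2.29 and 2.95 FPKM in the control libraries, 2.80, 3.19 and 2.84 with RANKL and 4.00, 3.73 and 3.55 with RANKL + UD. Its RANKL + UD libraries were the highest, with 0.50 ± 0.10 against control (adjusted p = 1.70e-04), and it did not pass in RANKL against control (0.23 ± 0.10, adjusted p = 0.0574).

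Zfp961 was at 4.55 ± 0.279 FPKM (SD, n = 3) in control, 4.04 ± 0.0656 with RANKL alone and 6.39 ± 0.577 with RANKL + UD, and rose by 0.57 ± 0.10 against RANKL (adjusted p = 2.86e-05). Zfp382 measured 5.37, 5.29 and 4.47 FPKM in the control libraries, 2.85, 2.45 and 2.40 with RANKL and 4.98, 3.63 and 4.01 with RANKL + UD, with the RANKL libraries below all others. Zfp445, which maintains imprinted methylation together with Zfp57, does not carry the pathway and is therefore no member. It was at 28.9 ± 3.32 FPKM (SD, n = 3) in control, 19.4 ± 2.22 with RANKL alone and 25.7 ± 0.658 with RANKL + UD, with log2 fold changes of -0.48 ± 0.09 (adjusted p = 5.92e-04) and 0.32 ± 0.09 (adjusted p = 0.0159). Zfp57 had a mean level of 0.0011 FPKM and was not tested. Of the 9 tested genes of the list, 6 were lower and 1 was higher with RANKL, where 30.2% of all genes were lower and 27.3% higher. With RANKL + UD against RANKL, 6 were higher and 1 was lower, where 18.7% of all genes were higher and 20.2% lower.

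The silencing machinery that KRAB proteins recruit was described from gene lists. The counts of each list below stand beside the shares over all genes tested. Those were 30.2% lower and 27.3% higher with RANKL, and 18.7% higher and 20.2% lower with RANKL + UD against RANKL. The 13 genes of the KAP1 list were all tested, and with RANKL 7 were lower and 3 were higher (median log2 fold change -0.13), whereas with RANKL + UD against RANKL 8 were higher and 1 was lower (median 0.23). Trim28, which encodes KAP1 itself, was at 40.4 ± 3.38 FPKM (SD, n = 3) in control, 37.1 ± 1.22 with RANKL alone and 46.5 ± 1.62 with RANKL + UD. It did not pass with RANKL (-0.03 ± 0.06, adjusted p = 0.620) and rose by 0.24 ± 0.06 with RANKL + UD against RANKL (adjusted p = 0.00101). Setdb1, the H3K9 methyltransferase that KAP1 recruits, had -0.03 ± 0.05 and 0.27 ± 0.05 in the same comparisons (adjusted p = 0.657 and 1.13e-04).

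Cbx5, which encodes HP1α, showed the largest rise of the list with RANKL + UD against RANKL, 1.01 ± 0.08 (adjusted p = 4.43e-07), from 22.3 ± 2.64 to 47.7 ± 1.06 FPKM (SD, n = 3). It fell by 0.50 with RANKL from 33.5 ± 3.19 FPKM. Cbx1 and Cbx3, the other HP1 genes, and Atf7ip, a partner of SETDB1, fell by 0.36, 0.26 and 0.45 with RANKL and rose by 0.37, 0.27 and 0.44 with RANKL + UD against RANKL, and Smarcad1, a chromatin remodeler that binds KAP1, by 0.20 and 0.17. Chd3, a remodeler of the NuRD complex, and the deacetylase gene Hdac2 rose with RANKL by 0.61 and 0.39, and Chd3 fell by 0.27 with RANKL + UD against RANKL. Trim24 and Trim33, relatives of Trim28, fell by 0.59 and rose by 0.26 with RANKL. Hdac1 rose by 0.23 with RANKL + UD against RANKL, and Morc3 fell by 0.13 with RANKL, a call lost under 11 of 18 alternatives.

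All 7 enzymes and cofactors of the H3K9 and DNA methylation list fell with RANKL (median -0.48), although the call of Ehmt2 was lost under 8 of 18 alternatives, and 5 rose with RANKL + UD against RANKL (median 0.32). Dnmt1, the maintenance DNA methyltransferase, was at 63.5 ± 1.44 FPKM (SD, n = 3) in control, 40.5 ± 1.01 with RANKL alone and 53.6 ± 0.803 with RANKL + UD, with log2 fold changes of -0.56 ± 0.04 and 0.32 ± 0.04 (adjusted p = 2.14e-11 and 2.14e-06). Its cofactor Uhrf1 fell by 0.48 and rose by 0.49, and the H3K9 methyltransferase genes Suv39h1 and Suv39h2 fell by 0.30 and 0.92 and rose by 0.41 and 0.59. Ehmt1 fell by 0.20 and rose by 0.23, while Setdb2 and Ehmt2 fell by 0.75 and 0.14 with RANKL and did not pass with RANKL + UD against RANKL.

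The list of the HUSH complex, which silences transposons together with SETDB1, and of genes associated with it gave 5 genes, all of them tested. Tasor, Mphosph8, Pphln1 and Morc2a fell with RANKL by 0.27, 0.22, 0.15 and 0.28, and Resf1 rose by 0.76. With RANKL + UD against RANKL, Mphosph8 rose by 0.36 and Resf1 fell by 0.19, a call that was lost under 6 of 18 alternatives and whose libraries overlapped. Daxx and Atrx, which deposit histone H3.3, fell with RANKL by 0.53 and 0.34 and had -0.04 ± 0.08 and 0.12 ± 0.11 with RANKL + UD against RANKL, neither of which passed. The H3.3 gene H3f3a rose by 0.20 with RANKL and fell by 0.17 with RANKL + UD against RANKL, calls that were lost under 3 and 6 of 18 alternatives and whose libraries overlapped in both comparisons. H3f3b did not pass with RANKL and fell by 0.21 with RANKL + UD against RANKL. Some genes of these lists, among them Dnmt1 and Uhrf1, moved in the direction of the members' medians in both comparisons. Others did not: with RANKL, Trim28, Setdb1, Hdac1 and H3f3b did not pass, and Chd3, Hdac2, Trim33, Resf1 and H3f3a rose. With RANKL + UD against RANKL, Chd3, Resf1, H3f3a and H3f3b fell. Hdac2, Morc3, Trim24, Trim33, Tasor, Pphln1, Morc2a, Ehmt2, Setdb2, Daxx and Atrx did not pass in that comparison. The part of any of these genes in the members' levels was not tested.

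**Figure D5:**
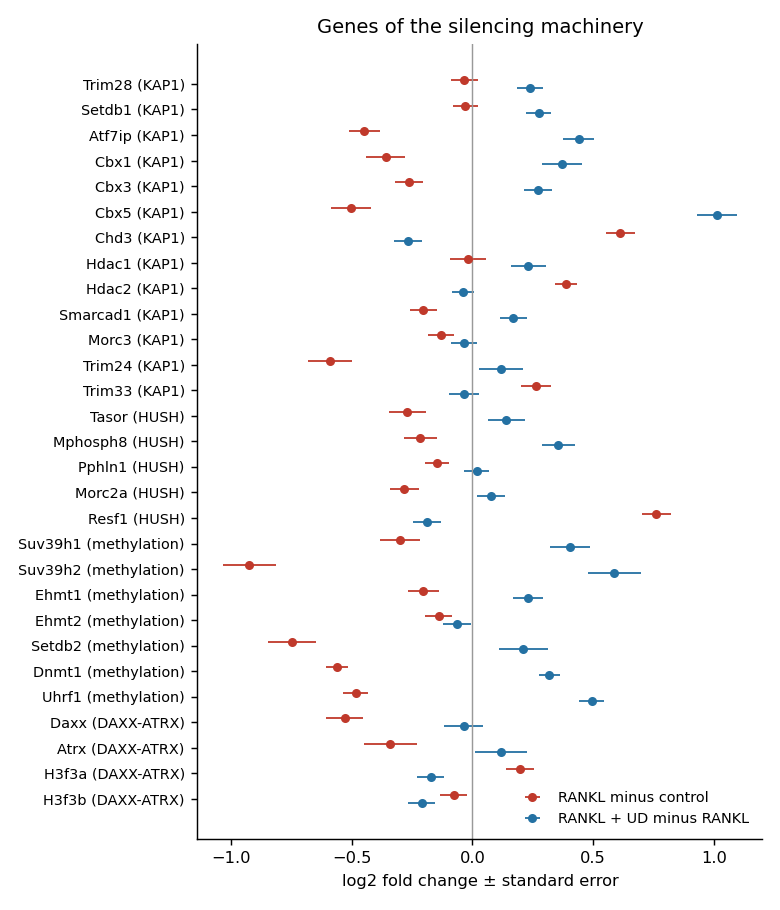
Log2 fold change with its standard error for the genes of the KAP1, HUSH, methylation and DAXX-ATRX lists in RANKL minus control (red) and RANKL + UD minus RANKL (blue). All 7 methylation genes lie below 0 in red, Cbx5 lies at 1.01 in blue, and Trim28 lies at -0.03 in red and 0.24 in blue.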

How the data were processed

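RNA from 9 libraries was measured, with groups and replicate numbers taken from the labels. The counts are whole reads per gene as deposited by the authors, and the deposited FPKM values equal those counts divided by exonic length and library total. The aligner, counting tool and strand setting are not given in the sources used here. The processing notes of the submitters name the build mm10, but 1 of 126 members had the same coordinates in the GRCm38 annotation, so positions are given as deposited, without a build.

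Genes with at least 1 FPKM in at least 3 libraries entered edgeR 4.0.16 (R 4.3.3) with TMM scaling, all 9 libraries in one quasi-likelihood fit, and Benjamini-Hochberg adjustment over all 11995 genes. The TMM factors were 0.959 to 0.962 for RANKL and 1.01 to 1.03 for the other libraries, and FPKM levels do not carry them. Without them, the members' median log2 fold change was -0.253 in place of -0.165 with RANKL. With RANKL + UD against RANKL it was 0.172 in place of 0.086. Levels in FPKM, shares of counts and the rule on overlap of libraries carry this shift. A call is an adjusted p under 0.05. Standard errors are the fold change divided by the square root of F. The pipeline was tested on simulated data. The labels call the libraries replicates but do not say that they came from separate cultures, so the p-values measure only the spread between these libraries, which may be technical. Counts between replicates differed by 2.91 to 8.89 times the sampling variance (chi-square per degree of freedom), so no library was a copy of another. The authors' own comparisons were not used.

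Genes named in the text are the 8 largest rises and falls among called members whose libraries did not overlap in FPKM, in RANKL against control and in RANKL + UD against RANKL, the 5 highest members, the 3 on each side of the floor, cluster members and the listed genes. The members and lists were chosen with earlier results of these data known. The division by KRAB box, shared sequence and promoter letters was made after the values had been seen. KRAB boxes were found with HMMER 3.4 (E-value of at most 1e-05) in proteins translated from the GENCODE transcripts. A promoter window matched 115 of 126 members, and promoter sequences are credited to RefSeq (GRCm38.p6). DESeq2 1.42.0 and limma 3.58.1 on log2(FPKM + 1) or log2(FPKM + 0.1) were among the alternatives.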

Additional observations from a re-analysis of the deposited data

How the results depend on the processing

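The medians of the members kept their sign under every alternative run, and no call of a named or listed gene reversed. In RANKL against control, 4 members were higher with total counts, 4 with limma on log2(FPKM + 1) and 5 with limma on log2(FPKM + 0.1), against 8, and the medians were -0.25, -0.21 and -0.25. In RANKL + UD against RANKL, 4, 2 and 2 members were lower under the same alternatives, against 11, and the medians were 0.17, 0.14 and 0.17. These alternatives do not use TMM scaling, and the calls over all genes tested moved in the same direction. Of all genes called with RANKL, 36.87%, 36.9% and 36.96% were higher, against 47.46% in the main fit. Of those called with RANKL + UD against RANKL, 66.25%, 65.85% and 66.11% were higher, against 48.14%. With the floor at 1 FPKM, which takes in 170 genes, the medians with RANKL and with RANKL + UD against control were -0.24 and -0.14, and 55 genes were lower in the latter. With the floor at 5 FPKM, which leaves 46 genes, 5 were higher and 22 lower with RANKL (median -0.20), 15 higher and 3 lower with RANKL + UD against RANKL, and 5 higher and 11 lower with RANKL + UD against control (median -0.035). Over all genes tested, 27.3% were higher and 30.2% lower with RANKL. The shares were 18.7% and 20.2% with RANKL + UD against RANKL, and 26.5% and 27.4% with RANKL + UD against control. Leaving out each library gave 5 to 9 higher and 48 to 56 lower members with RANKL (medians -0.21 to -0.16), 32 to 40 higher and 3 to 11 lower with RANKL + UD against RANKL (medians 0.07 to 0.11), and 12 to 18 higher and 26 to 35 lower with RANKL + UD against control (medians -0.09 to -0.06). Of all genes called in these runs, 47.29 to 47.85%, 47.0 to 48.52% and 48.85 to 49.4% were higher in the same order.

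With the replicate number as a block, 8 members were higher and 57 lower with RANKL, 39 higher and 11 lower with RANKL + UD against RANKL, and 19 higher and 36 lower with RANKL + UD against control. Of all genes called with that block, 47.49%, 48.45% and 49.38% were higher in the same order. Deviations of libraries with the same number correlated at -0.02 to 0.10, and those of libraries with other numbers at -0.102 to 0.047. The pairs of replicate 1, at 0.086, 0.098 and 0.063, lay above the latter range. So did the pair of control replicate 3 and RANKL + UD replicate 3, at 0.06. Whether libraries with the same number shared a batch was not tested. Of 253 results of named and listed genes, 42 lost their call under at least 1 alternative, and 15 under at least 5 of 18. A gap of 250 kb gave 13 clusters with 75 members in place of 15 with 87. With 3 libraries a group, an exact two-sided permutation test cannot go below 0.1, so no such test was used.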
